A study of Mus musculus with 12 samples.

Results

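Gamma-delta T cells that make interleukin 17 were compared here with ROR- cells of the same mouse strain, B6. The members are the 2 arrays labelled B6 gamma-delta 17 and the 2 labelled B6 ROR-, 4 of the 12 Affymetrix whole-transcript arrays in the series, found by their labels. The other 8 arrays carry B6 iNKT17 cells (2), BALB/c iNKT17 cells (3) and BALB/c ROR- cells (3), and the series is about invariant natural killer T (iNKT) cells. All groups are mouse cells with no treatment named, and the labels give the strain and the cell phenotype only. They state neither the organ, the age, the sort nor the antigen receptor of the ROR- cells, and the extraction protocol speaks of frozen tissue. Nothing says whether replicates came from separate animals, so the p-values measure the spread between arrays within the 5 groups, which may be technical.

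Type 17 lymphocytes make interleukin 17, a cytokine that recruits neutrophils and guards epithelial barriers. Gamma-delta 17 cells carry a receptor built from a gamma and a delta chain, leave the thymus already committed to making IL-17, and respond to IL-23 and IL-1 without needing antigen. Cells of the iNKT lineage instead carry a semi-invariant alpha-beta receptor, and their members outside the type 17 branch make interferon gamma or interleukin 4. The comparison therefore sets a type 17 gamma-delta population beside cells labelled ROR-.

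Values are log2 levels as deposited, given for replicate 1 and then replicate 2 of each group, and each fold change is the mean of the gamma-delta 17 arrays minus that of the ROR- arrays in log2 units ± its standard error (SE, 2 arrays against 2). The SE rests on a spread pooled over all 12 arrays, BALB/c ones included, not on the compared arrays alone. BALB/c ROR- replicate 2 stood above its partners for Il23r, Il1r1, Abi3bp, Pram1, Blk and Clnk, which widened their SE. A gene passed when its limma p-value, adjusted by the Benjamini-Hochberg method over 16667 genes, was under 0.05. Of those genes 1003 passed (6.02%), 435 higher (2.61%) and 568 lower (3.41%) in gamma-delta 17 cells, and 580 (3.48%) did so with at least a 2-fold change. Of these 580, 252 were higher (1.51%) and 328 lower (1.97%). The arrays of the 2 groups did not overlap for any of the 1003, but that held for 8091 genes (48.5%) in all, so absence of overlap alone separates little. The count fell to 650 without gamma-delta 17 replicate 2, 530 without ROR- replicate 1 and 564 without ROR- replicate 2. In these bulk samples, fewer cells of a type and less RNA per cell cannot be told apart.

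**Figure D1:**
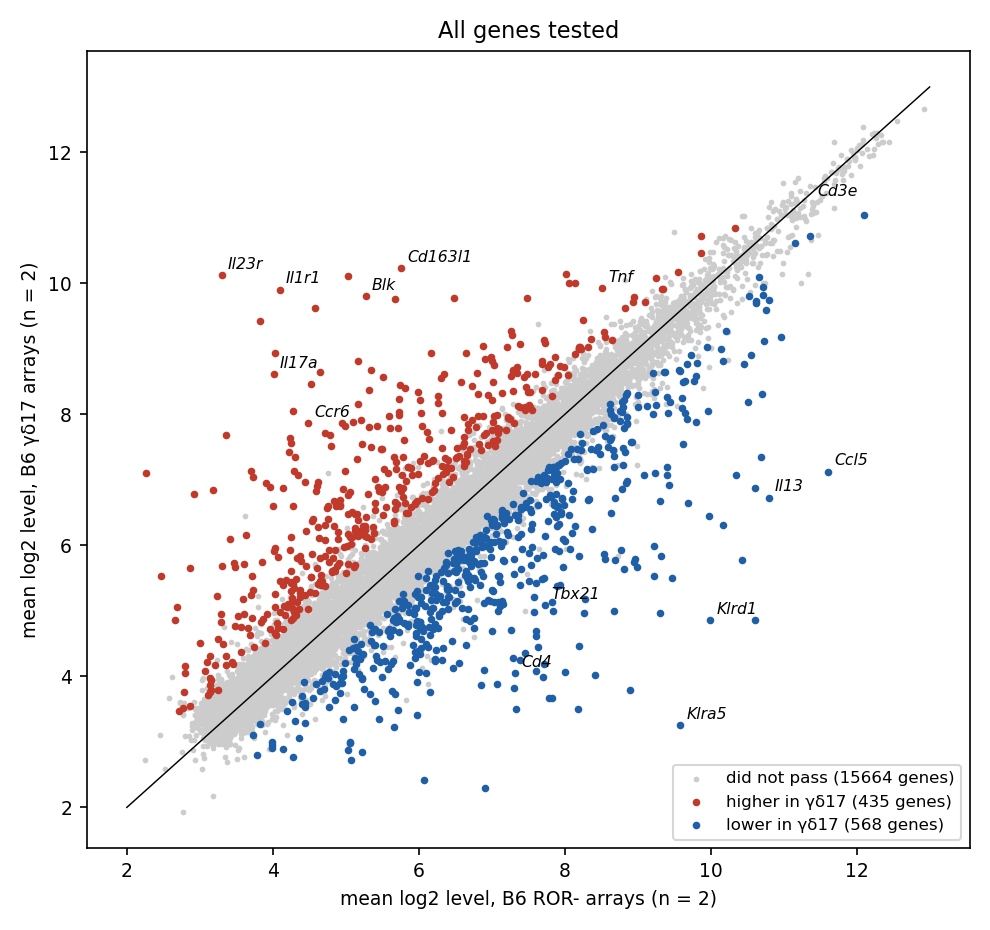
Mean log2 level of 16667 genes in the B6 ROR- arrays (x axis, n = 2) against the B6 gamma-delta 17 arrays (y axis, n = 2, written γδ17). Red points are the 435 genes that passed higher in gamma-delta 17 cells, blue points the 568 that passed lower and grey points the rest; the line marks equal levels, and Il23r lies farthest above it and Klra5 farthest below.

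The array labelled gamma-delta 17 replicate 1 stood apart from its partner in neutrophil and CD8 genes before any comparison was made. By number of differing genes the pair was close to the ROR- pair. At least 1 log2 unit lay between the gamma-delta 17 arrays for 209 genes, the ROR- arrays for 194 and the B6 iNKT17 arrays for 124. S100a8, a neutrophil granule protein gene, stood at 9.30 on that array and at 2.29 on replicate 2, and it was set aside by the filter on dim genes since only 1 array showed it. S100a9, its partner, stood at 9.0 and 3.89, Ngp at 6.25 and 3.27 and the macrophage and neutrophil lysozyme Lyz2 at 6.86 and 3.59. Over the 22 neutrophil markers measured, the mean level was 4.62 on replicate 1 with 17 above the dim level (log2 3.45), 3.41 with 11 above on replicate 2, and 3.43 and 3.33 with 9 and 8 above on the ROR- arrays. The coreceptor genes of CD8 T cells behaved alike, with Cd8a at 8.76 and 5.47 and Cd8b1 at 8.24 and 4.30 on the gamma-delta 17 arrays against 4.59 and 4.93 and 4.69 and 5.33 on the ROR- arrays. None of the 14 neutrophil markers tested and neither CD8 gene passed with both arrays, whereas 6 and 2 of them were higher when gamma-delta 17 replicate 2 was left out. The deposited arrays of each group otherwise correlated closely across all 41345 probe sets, with r = 0.981 for gamma-delta 17 and 0.985 for ROR- cells.

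**Figure D2:**
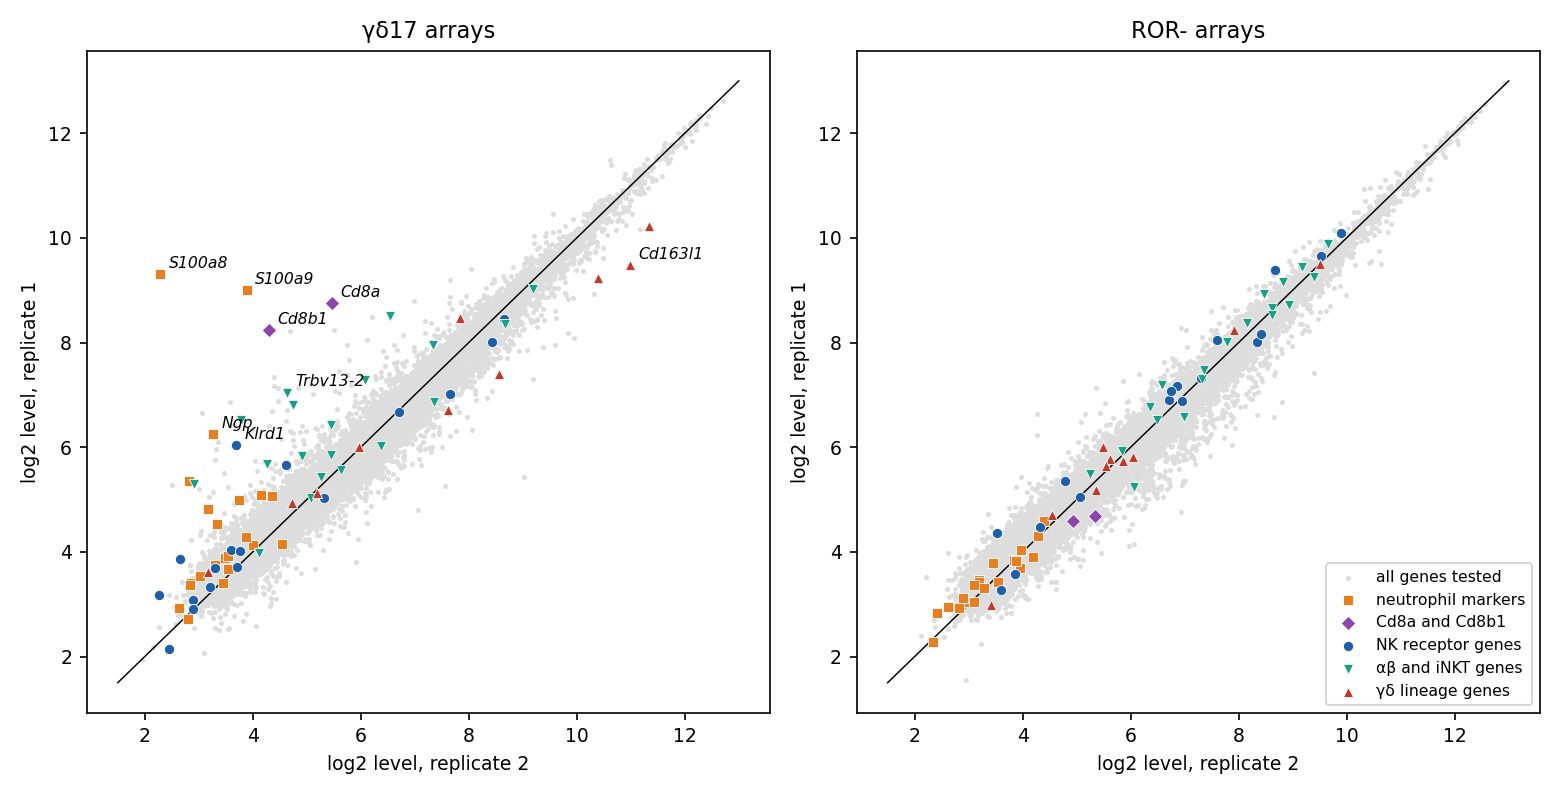
Log2 level of each gene on replicate 2 (x axis) against replicate 1 (y axis), for the gamma-delta 17 arrays (left) and the B6 ROR- arrays (right), with neutrophil, CD8, NK receptor, alpha-beta with iNKT, and gamma-delta lineage genes coloured; the line marks equal levels. S100a8, S100a9, Cd8a and Cd8b1 lie far above the line in the left panel only, while Cd163l1 lies below it.

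That array also lay nearer to the ROR- arrays than its partner did along many of the changes. Among the 252 genes higher by at least 2-fold it was the lower of the gamma-delta 17 arrays for 196 (77.8%), and among the 328 lower genes it was the higher for 221 (67.4%), whereas over all genes tested these shares were 47.5% and 52.4%. The ROR- arrays showed no such lean, replicate 1 being the lower for 48.4% of the rises and the higher for 53.0% of the falls. The part of neutrophil, CD8 or other cells in these positions was not tested. Without replicate 1 of gamma-delta 17, 747 genes passed, 653 of them among the 1003, and no gene passed in the opposite direction. Both gamma-delta 17 arrays are therefore given for the genes the results turn on.

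The cells' identity was checked against their defining genes. The invariant chain gene of the T cell receptor complex Cd3e stood at 11.09 and 11.40 in gamma-delta 17 and 11.38 and 11.38 in ROR- cells, abundant on all 4 arrays (-0.13 ± 0.15, adjusted p = 0.711). The gamma and delta constant genes are not analysed here. Il17a, Il23r, Ccr6, Blk and Cd163l1, all known from gamma-delta 17 cells, were high on both gamma-delta 17 arrays. Of these only Il17a and Cd163l1 passed as higher than in B6 iNKT17 cells. Il23r, Ccr6 and Blk did not pass, which does not show equal levels. Ccr6 was higher in gamma-delta 17 cells by 1.15 without iNKT17 replicate 1 and by 0.55 without iNKT17 replicate 2. Mean levels of Il23r and Blk were 9.76 and 9.56 in iNKT17 against 10.13 and 9.81 in gamma-delta 17 cells. The beta chain segment Trbv13-2, used by many iNKT cells, was high on both ROR- arrays. Values of all these genes follow. Alpha chain segments, named after their values were seen, differed less. Trav9d-3 was abundant in both groups, at 11.48 and 10.62 in gamma-delta 17 against 12.13 and 12.08 in ROR- cells (-1.05 ± 0.22, adjusted p = 0.0134). Trav12-2 (-0.65), Trav14d-3-dv8 (-0.52), Trav7-4 (-0.19) and Trav3-4 (0.64) did not pass.

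The largest rises were led by genes that let a cell sense IL-23 and IL-1. Promoters of some of the 15 largest rises are shown because they share a short hexamer. For 9 of the 15 genes with the largest rises RefSeq promoters (GRCm38.p6) were at hand, and for 13 of the 15 with the largest falls. The letters AGGTCA, or on the other strand TGACCT, the core read by many nuclear receptors, occurred in the 250 bases before the start of 4 of the 9 genes that rose and of 0 of the 13 that fell, against 14.0% of all 32851 promoters in the table. Counted by promoter these were 5 of 11 (45.5%) and 0 of 14. The genes that rose and held no match were Il1r1, Il22, Cd163l1, Npl and Cdh10. The hexamer was chosen after the expression values had been seen, both strands were searched, and a match is a description of letters, not a binding site. The sequences of those 4 genes follow, 5′ to 3′ on the gene's strand, with the hexamer in capitals.
Il23r, chr6:67491856-67492105, minus strand: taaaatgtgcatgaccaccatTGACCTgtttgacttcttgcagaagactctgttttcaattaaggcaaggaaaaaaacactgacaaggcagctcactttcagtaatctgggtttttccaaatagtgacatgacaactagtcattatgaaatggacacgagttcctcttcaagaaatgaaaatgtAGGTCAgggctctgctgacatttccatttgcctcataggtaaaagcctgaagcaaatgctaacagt
Il17a, chr1:20730655-20730904, plus strand: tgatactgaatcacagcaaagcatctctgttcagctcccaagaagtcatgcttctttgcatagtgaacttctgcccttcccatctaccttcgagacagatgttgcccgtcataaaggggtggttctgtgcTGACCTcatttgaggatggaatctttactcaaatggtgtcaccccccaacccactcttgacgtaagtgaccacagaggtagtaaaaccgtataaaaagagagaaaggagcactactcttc
Pram1, chr17:33637845-33638094, plus strand: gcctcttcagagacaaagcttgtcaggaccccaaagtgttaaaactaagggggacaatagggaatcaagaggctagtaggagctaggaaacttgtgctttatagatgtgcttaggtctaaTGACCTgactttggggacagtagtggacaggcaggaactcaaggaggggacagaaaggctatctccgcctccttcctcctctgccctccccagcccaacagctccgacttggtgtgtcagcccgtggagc
Clnk, chr5:38876694-38876943, minus strand: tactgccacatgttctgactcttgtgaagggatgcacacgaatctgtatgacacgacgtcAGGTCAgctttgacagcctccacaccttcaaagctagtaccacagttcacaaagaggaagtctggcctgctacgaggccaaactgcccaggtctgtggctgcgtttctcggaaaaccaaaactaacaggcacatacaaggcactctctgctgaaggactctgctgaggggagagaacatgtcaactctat

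The promoter of Il23r holds the hexamer once on each strand, starting 229 and 66 bases before the gene's start, and those of Il17a, Pram1 and Clnk hold it once, starting 120, 130 and 190 bases before. A second promoter listed for Pram1 overlaps the one shown and holds the same match. A T-box heptamer, GGTGTGA, or on the other strand TCACACC, the letters read by factors such as T-bet, was found in 2 of the 14 promoters of genes that fell, Samd3 and Pglyrp1, in 0 of the 11 of genes that rose, and in 3.33% of all promoters. Other regulatory DNA was not searched.

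Cytokine genes of the type 17 program were higher in gamma-delta 17 cells, and the counts given for them take in the protease gene Furin. Of 14 tested, 7 rose and 0 fell, with a median change of 0.97 against 0.01 over all genes, of which 2.61% rose and 3.41% fell. A further 3 members were dim and 1 had no probe set of its own. Il17a, the cytokine that names the program, stood at 8.24 and 8.98 on the gamma-delta 17 arrays and at 3.62 and 4.41 on the ROR- arrays. Both gamma-delta 17 arrays were thus far above both ROR- arrays, a rise of 4.60 ± 0.47 or 24.2-fold (adjusted p = 9.46e-05), and of 4.97 without gamma-delta 17 replicate 1. Il17f, which encodes the closest relative of IL-17A, stood at 6.94 and 8.33 against 4.10 and 4.38 (3.39 ± 0.39, adjusted p = 0.000232). Its level differed more between the gamma-delta 17 arrays than that of Il17a, replicate 1 being the lower for both genes.

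Il22, which encodes a cytokine acting on epithelial barriers, was the exception among the leading rises in its stability. It stood at 7.61 and 6.61 in gamma-delta 17 cells, here higher on replicate 1, and at 1.56 and 2.96 in ROR- cells. Both ROR- values lie under the dim level, and the SE takes in BALB/c ROR- arrays at 2.08, 5.46 and 1.55. The size of the Il22 rise is therefore unsure (4.85 ± 1.06, adjusted p = 0.0185). Its call was lost without gamma-delta 17 replicate 1 (4.35, adjusted p = 0.122) or 2 (5.35, adjusted p = 0.0555) and without ROR- replicate 1 (4.15, adjusted p = 0.149), and in a trended robust fit (adjusted p = 0.0738). Csf2, the gene of the myeloid growth factor GM-CSF, rose from 5.84 and 5.02 to 7.45 and 8.21 (2.40 ± 0.38, adjusted p = 0.00233), and Furin, a protease that matures secreted proteins, from 7.09 and 7.43 to 9.45 and 9.11 (2.02 ± 0.28, adjusted p = 0.000968). Tnf and Lta, neighbouring cytokine genes of inflammation, differed by 1.42 ± 0.29 and 1.41 ± 0.30. Tnf was already abundant in ROR- cells at 8.40 and 8.61 and reached 9.69 and 10.17; its call was lost without gamma-delta 17 replicate 2 (adjusted p = 0.1) or ROR- replicate 1 (0.0933), and that of Lta without any of the 4 arrays (adjusted p = 0.0783 to 0.0948). The number of cytokine genes that rose was then 4 without gamma-delta 17 replicate 2 and 4 without ROR- replicate 1.

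The 2 largest rises of the comparison were those of receptors that drive this program. Il23r, the specific chain of the IL-23 receptor, stood at 9.96 and 10.29 on the gamma-delta 17 arrays and 2.93 and 3.67 on the ROR- arrays. Its ROR- mean lies under the dim level, so that the difference of 6.83 ± 0.95 (adjusted p = 0.000958) has no sure size. Il1r1, the signalling receptor of IL-1, stood at 9.61 and 10.20 against 4.0 and 4.19, a 56.2-fold rise (5.81 ± 0.49, adjusted p = 2.95e-05). The nearest arrays of the 2 groups were 6.29 log2 units apart for Il23r and 5.42 for Il1r1. Ccr6, the chemokine receptor for CCL20, rose from 4.35 and 4.61 to 7.56 and 8.17 (3.38 ± 0.31, adjusted p = 4.72e-05).

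A pair of receptor chains of the interleukin 17 family, Il17re and Il17rc, rose as well, while Il17rb, given with the type 2 genes, fell. Il17re, part of the receptor for IL-17C, stood at 6.79 and 7.34 against 4.44 and 4.24 (2.73 ± 0.19, adjusted p = 9.25e-06). Il17rc, part of the receptor for IL-17A and IL-17F, stood at 5.97 and 6.62 against 4.79 and 4.89 (1.46 ± 0.22, adjusted p = 0.00194). Of the 19 receptors of the list 5 thus rose, and 5 rose again when any 1 of the 4 arrays was left out. The single member that fell was Il21r, the IL-21 receptor, from 7.60 and 7.82 to 6.06 and 4.95 (-2.21 ± 0.32, adjusted p = 0.00132), and without gamma-delta 17 replicate 1 a second member fell. The survival receptor Il7r was abundant in both groups, at 10.36 and 10.79 and 10.94 and 10.33, and its ROR- arrays differed from each other more than the groups did (-0.06 ± 0.34, adjusted p = 0.95).

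**Figure D3:**
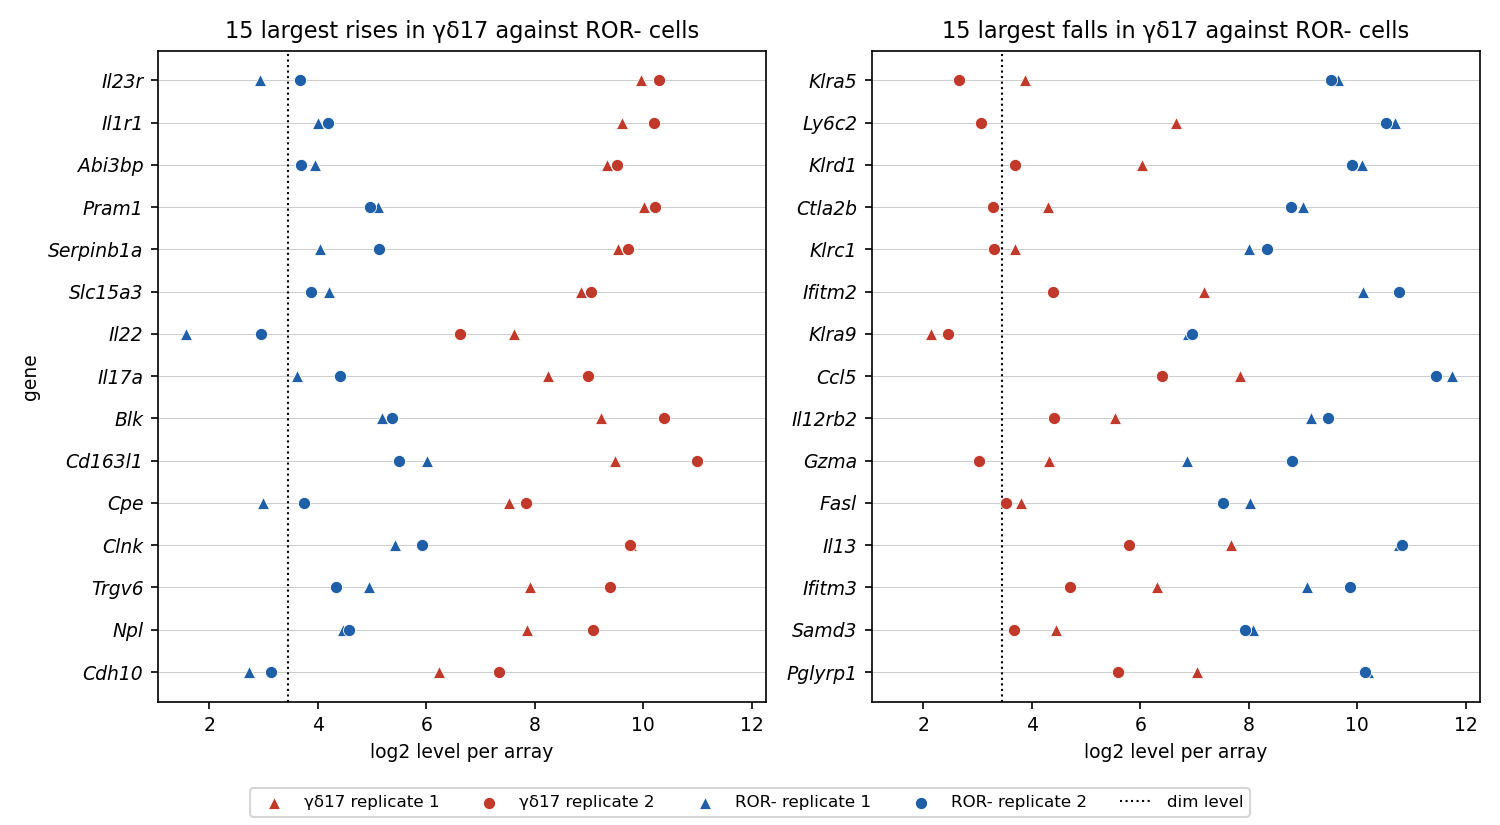
Log2 level on each of the 4 arrays (triangles, replicate 1; circles, replicate 2) for the 15 largest rises (left) and 15 largest falls (right) in gamma-delta 17 (red) against ROR- cells (blue) of B6 mice, with the dim level dotted. The genes were chosen with the nearest arrays of the groups at least 1 log2 unit apart, so that rule alone keeps red and blue points separate. On the right, the red triangle of replicate 1 lies nearer to the blue points for 14 of 15 genes, as for Ly6c2 at 6.66 against 3.06.

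Transcription factors of the type 17 program held smaller changes than its cytokines and receptors, none above 1.47 in size. Of 19 tested, 2 rose and 5 fell, with a median change of 0.01 (-0.09 to 0.04 with 1 of the 4 arrays left out). Sox13, a factor that specifies gamma-delta 17 cells, rose from 5.78 and 5.61 to 6.71 and 7.62 (1.47 ± 0.24, adjusted p = 0.00287). Maf, required for the same lineage, was already abundant in ROR- cells at 9.50 and 9.51 and stood at 10.22 and 11.34, a difference that did not pass (1.28 ± 0.41, adjusted p = 0.101) but did without gamma-delta 17 replicate 1 (1.84, adjusted p = 0.036), with array weights (adjusted p = 0.046) and with the mean of its probe sets (0.0148). Ahr, the aryl hydrocarbon receptor that supports IL-22, stood at 6.88 and 5.90 against 5.24 and 5.10 (1.22 ± 0.30, adjusted p = 0.0343), and lost its call without gamma-delta 17 replicate 1 (0.73, adjusted p = 0.254), either ROR- array (adjusted p = 0.125 and 0.183) or either B6 iNKT17 array (0.0511 and 0.0511), and in a fit on the 4 compared arrays alone (0.0876) or the 6 B6 arrays (0.0601).

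Among the factors that fell was Nfkbiz, an inducible regulator of NF-κB targets, from 7.92 and 7.79 to 6.64 and 6.68 (-1.20 ± 0.19, adjusted p = 0.00283). Zbtb16, the gene of the innate T cell factor PLZF, was high in ROR- cells at 8.66 and 8.61 and lower but present in gamma-delta 17 cells at 7.95 and 7.34 (-0.99 ± 0.20, adjusted p = 0.00996). That call was lost without gamma-delta 17 replicate 2 (adjusted p = 0.0856) or either ROR- array (0.0759 and 0.0606), and in a fit on the 4 compared arrays alone (0.0596). The other members that fell, Hif1a (-0.90), Etv5 (-0.64) and Id2 (-0.57), each lost their call without 3 or more of the arrays, and 1 to 3 factors fell when 1 of the 4 arrays was left out: 3 and 2 without gamma-delta 17 replicate 1 and 2, and 1 without either ROR- array. Rora, a nuclear receptor gene, stood at 6.15 and 6.45 against 6.22 and 5.99 (0.20 ± 0.14, adjusted p = 0.545).

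On the gamma-delta lineage list 4 of 10 genes tested rose and 1, Etv5, fell. Those that rose were Blk, Cd163l1, 5830411N06Rik and Sox13. Of the list only Cd163l1 also passed as higher than in B6 iNKT17 cells. Blk stood at 9.78 and 9.33 in iNKT17 cells, with a difference of 0.25 ± 0.62 (adjusted p = 0.928). Another 16 genes of the list had no probe set of their own. Outside it, the gamma chain variable segment Trgv6 stood at 7.92 and 9.38 on the gamma-delta 17 arrays against 4.94 and 4.34 on the ROR- arrays (4.01 ± 0.46, adjusted p = 0.000256). Another gamma segment, Trgv5, stood at 6.58 and 7.97 against 7.14 and 5.35, where the groups overlap (1.03 ± 0.55, adjusted p = 0.372). Both segments were lower on replicate 1 of gamma-delta 17 than on replicate 2; Trgv5 was named after its values were seen.

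Cd163l1, a scavenger receptor gene of gamma-delta T cells, stood at 9.48 and 10.99 against 6.01 and 5.50, a 22.3-fold rise (4.48 ± 0.37, adjusted p = 2.47e-05). Its neighbour in the same receptor family, 5830411N06Rik, rose from 5.64 and 5.55 to 7.39 and 8.55 (2.38 ± 0.34, adjusted p = 0.00113). Blk, a Src-family kinase needed for gamma-delta 17 cells to form, stood at 9.23 and 10.39 against 5.18 and 5.36 (4.53 ± 0.62, adjusted p = 0.000856). In each of these 3 genes replicate 2 of gamma-delta 17 was the higher, by 1.16 to 1.51 log2 units. Clnk, an adaptor related to SLP-76, stood almost level on the gamma-delta 17 arrays at 9.77 and 9.76 and at 5.42 and 5.93 in ROR- cells (4.09 ± 0.49, adjusted p = 0.000315).

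The surface and effector genes of type 17 cells gave the highest share of rises of any list. Of 25 tested 14 rose and 0 fell, with a median change of 0.87. The list was chosen with earlier results of these data known, so its share describes these genes and tests nothing. Abi3bp, an extracellular matrix-associated protein gene, stood at 9.33 and 9.52 against 3.95 and 3.70 (5.60 ± 0.61, adjusted p = 0.000175). Pram1, an adaptor of blood cells, stood at 10.02 and 10.21 against 5.10 and 4.97 (5.08 ± 0.50, adjusted p = 8.34e-05). Serpinb1a, an inhibitor of granule proteases, stood at 9.53 and 9.72 against 4.04 and 5.12 (5.05 ± 0.46, adjusted p = 5.15e-05). For these 3 genes the gamma-delta 17 arrays lay 0.19, 0.19 and 0.20 log2 units apart, far less than the groups.

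Slc15a3, a lysosomal transporter of peptides and histidine, stood at 8.85 and 9.03 against 4.20 and 3.87 (4.90 ± 0.32, adjusted p = 5.83e-06). Cpe, the peptide hormone processing enzyme carboxypeptidase E, stood at 7.52 and 7.84 against 2.99 and 3.74, the ROR- mean being under the dim level (4.32 ± 0.43, adjusted p = 8.45e-05). Npl, an enzyme that splits sialic acid, stood at 7.86 and 9.08 against 4.46 and 4.57 (3.95 ± 0.34, adjusted p = 3.11e-05), and the cadherin gene Cdh10 at 6.23 and 7.33 against 2.72 and 3.13, again under the dim level in ROR- cells (3.86 ± 0.40, adjusted p = 0.000105). Npl and Cdh10 are no members of the list; both were lower on replicate 1 of gamma-delta 17, as 13 of the 15 largest rises were. The potassium channel gene Kcnk1, which is one, rose from 5.11 and 5.24 to 8.07 and 8.25 (2.98 ± 0.17, adjusted p = 4e-06). Of the 15 largest rises 14 passed whichever of the 6 B6 arrays was left out, Il22 being the exception.

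Genes of natural killer (NK) cell receptors were 4 of the 15 largest falls. Of 17 on the list that were tested, 10 fell and 1 rose, with a median change of -2.08. Klra5, a Ly49 receptor gene, stood at 3.87 and 2.65 on the gamma-delta 17 arrays and 9.65 and 9.52 on the ROR- arrays (-6.33 ± 0.28, adjusted p = 6.52e-07). Klra9, another of that family, stood at 2.15 and 2.45 against 6.87 and 6.95 (-4.61 ± 0.32, adjusted p = 9.25e-06). Both lay under the dim level on average in gamma-delta 17 cells, which leaves the size of each fall unsure, and near-identical Ly49 genes may bind the same probes.

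Klrd1 and Klrc1 encode the partners CD94 and NKG2A of one inhibitory receptor. Klrc1 was low on both gamma-delta 17 arrays at 3.69 and 3.31 against 8.01 and 8.35 (-4.68 ± 0.29, adjusted p = 4.88e-06), while Klrd1 stood at 6.03 and 3.69 against 10.09 and 9.90 (-5.13 ± 0.51, adjusted p = 8.36e-05), the higher value on replicate 1. The fall of Klrd1 was -6.31 without replicate 1 and -3.96 without replicate 2. Klre1 fell by 3.49 ± 0.34 and Klrb1c, the gene of NK1.1, by 2.68 ± 0.36. The member that rose was Klrb1f, from 7.16 and 6.85 to 8.02 and 8.43 (1.22 ± 0.24, adjusted p = 0.00866), a call lost without gamma-delta 17 replicate 2 (adjusted p = 0.0863) or ROR- replicate 2 (0.0904). Markers of conventional NK cells, whose list shares Klra9, Klre1 and Klrg1 with that of the NK receptors and Gzma with the next, had a mean level over 12 genes of 4.56 and 4.11 in gamma-delta 17 and of 5.83 and 5.93 in ROR- cells, 10, 8, 11 and 12 of them above the dim level; 5 fell. Ncr1, their defining receptor, named after its values were seen, stood at 4.31 and 4.17 against 4.74 and 3.94 (-0.10 ± 0.26, adjusted p = 0.897). The part of NK cells in these falls was not tested.

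The type 1 and cytotoxic program was lower in gamma-delta 17 cells, with 15 of 29 members falling, 1 rising and a median change of -1.15. Tbx21, the gene of its master factor T-bet, stood at 5.12 and 5.06 on the gamma-delta 17 arrays and 7.78 and 7.67 on the ROR- arrays (-2.63 ± 0.27, adjusted p = 9.46e-05). Il12rb2, the chain through which IL-12 induces interferon gamma, stood at 5.54 and 4.41 against 9.15 and 9.46 (-4.33 ± 0.32, adjusted p = 1.24e-05). The groups did not overlap for either gene, the nearest arrays being 2.55 and 3.61 log2 units apart. Ifng itself stood at 4.56 and 3.59 against 6.57 and 8.66, the ROR- arrays lying 2.09 log2 units apart (-3.54 ± 0.90, adjusted p = 0.0398). Its call was lost without either gamma-delta 17 array (adjusted p = 0.0844 and 0.196), ROR- replicate 2 (0.294) or either B6 iNKT17 array (0.0574 and 0.0574), and in a trended robust fit (0.117).

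Effector molecules of killer cells fell with it. Fasl, the death ligand, stood at 3.80 and 3.53 against 8.03 and 7.53, a fall of 4.11 ± 0.27 (adjusted p = 5.77e-06). Ccl5, a chemokine of effector lymphocytes, was bright in ROR- cells at 11.75 and 11.46 and remained well above the dim level in gamma-delta 17 cells at 7.85 and 6.41 (-4.48 ± 0.36, adjusted p = 1.96e-05). Xcl1, which draws cross-presenting dendritic cells, stood at 8.24 and 5.51 against 10.45 and 10.76, with replicate 1 of gamma-delta 17 2.73 log2 units above replicate 2 (-3.73 ± 0.66, adjusted p = 0.00485). Gzma, the granzyme A gene, stood at 4.32 and 3.03 against 6.86 and 8.80 (-4.16 ± 0.86, adjusted p = 0.0134), and lost its call without gamma-delta 17 replicate 2 (-3.51, adjusted p = 0.11) or ROR- replicate 2 (-3.19, adjusted p = 0.139), and in a trended robust fit (adjusted p = 0.0576). The chemokine receptor Cxcr3 fell from 8.12 and 8.98 to 5.98 and 5.60 (-2.76 ± 0.23, adjusted p = 2.47e-05) and the shared IL-2 and IL-15 receptor chain Il2rb from 10.95 and 10.98 to 9.20 and 9.17 (-1.78 ± 0.33, adjusted p = 0.00652; 0.0512 without ROR- replicate 2, and at the threshold without replicate 1). Prdm1, the one member that rose (0.58 ± 0.15, adjusted p = 0.0426), lost its call without any of the 6 B6 arrays (0.0526 to 0.286). Eomes, a relative of T-bet, was dim in both groups at 3.60 and 3.35 and 3.83 and 3.97 (-0.42 ± 0.15, adjusted p = 0.146).

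Type 2 genes fell too, 8 of 18 with 0 rises and a median change of -1.20. Il13, a type 2 cytokine, stood at 7.67 and 5.79 against 10.77 and 10.82 (-4.07 ± 0.55, adjusted p = 0.00077) and Il4, its neighbour, at 6.78 and 6.19 against 8.75 and 8.52 (-2.14 ± 0.20, adjusted p = 6.34e-05). Neither group overlapped the other, although Il13 differed by 1.88 log2 units between the gamma-delta 17 arrays. Gata3, the factor that drives both cytokines, fell from 9.09 and 8.73 to 7.59 and 7.56 (-1.33 ± 0.19, adjusted p = 0.00136). Il17rb, the IL-25 receptor chain, stood at 6.69 and 4.36 against 9.47 and 8.97 (-3.69 ± 0.67, adjusted p = 0.00548), a call lost without ROR- replicate 1 (adjusted p = 0.0589). The homing receptor Ccr4 fell by 2.60 ± 0.24. Plac8 fell from 9.30 and 8.64 to 7.14 and 4.46, the gamma-delta 17 arrays lying 2.67 log2 units apart (-3.17 ± 0.64, adjusted p = 0.0117), and lost its call without ROR- replicate 1 (adjusted p = 0.106) and in fits on the 4 compared or the 6 B6 arrays (0.0788 and 0.0562). Without ROR- replicate 1, 5 members of the list fell.

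Genes of alpha-beta T cells and iNKT cells had the highest share of falls of any list in these data. Of 19 tested 12 fell and 0 rose, with a median change of -1.46. This list too was chosen with earlier results of these data known. Without gamma-delta 17 replicate 1 the median was -2.45 and 13 fell, and without replicate 2 it was -0.98 and 8 fell. Cd4, the coreceptor, stood near the dim level in gamma-delta 17 cells at 3.98 and 4.11 and at 7.30 and 7.33 in ROR- cells (-3.27 ± 0.19, adjusted p = 4e-06). Its arrays differed by 0.13 log2 units within gamma-delta 17 and 0.03 within ROR- cells. The beta chain segment Trbv13-2 stood at 7.04 and 4.63 against 9.25 and 9.40 (-3.49 ± 0.53, adjusted p = 0.00194), with the higher value on replicate 1 of gamma-delta 17; its fall was -4.69 without that array and -2.28 without replicate 2. The mean level over the 19 genes was 6.50 on gamma-delta 17 replicate 1 and 5.67 on replicate 2, 7.76 and 7.68 on the ROR- arrays, and 6.48 and 6.40 on the B6 iNKT17 arrays. Replicate 1 of gamma-delta 17 thus stood at the level of the iNKT17 arrays for these genes; the part of alpha-beta cells in that was not tested.

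Other members of the list are costimulatory or signal-tuning molecules. Cd28, the main costimulatory receptor, stood at 5.68 and 4.26 against 8.38 and 8.15 (-3.29 ± 0.33, adjusted p = 8.34e-05). Izumo1r, the gene of folate receptor 4, stood at 5.85 and 5.44 against 8.71 and 8.92 (-3.17 ± 0.26, adjusted p = 2.45e-05). Cd40lg, the gene of CD40 ligand, fell from 8.92 and 8.47 to 6.81 and 4.74 (-2.92 ± 0.57, adjusted p = 0.00912), the higher value on replicate 1 of gamma-delta 17, with its call lost without gamma-delta 17 replicate 2 (-1.89, adjusted p = 0.0599) or ROR- replicate 1 (-2.70, adjusted p = 0.0844). The chromatin organiser Satb1 fell from 9.44 and 9.16 to 7.28 and 6.09 (-2.62 ± 0.32, adjusted p = 0.000398) and the inhibitory receptor Cd5 from 9.89 and 9.66 to 8.36 and 8.67 (-1.26 ± 0.17, adjusted p = 0.000776). Satb1 and Cd4 are also markers of immature thymocytes, of which 3 of 12 fell, Aqp11 (-1.27) being the third; without gamma-delta 17 replicate 2, 2 fell and 4 rose, and Aqp11 lost its call there (0.19) and without ROR- replicate 1 (0.225).

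Proximal T cell receptor signalling genes changed in both directions, 3 of 28 higher and 7 lower, with a median change of -0.14 (-0.24 to -0.02 with 1 of the 4 arrays left out). Beside Blk and Clnk, the adaptor Grap2 rose from 7.95 and 7.79 to 8.92 and 8.83 (1.01 ± 0.14, adjusted p = 0.000874). The largest fall was that of Fcer1g, the Fc receptor gamma chain that signals for several receptors, from 8.95 and 8.95 to 6.36 and 5.15 (-3.20 ± 0.30, adjusted p = 6.34e-05). Txk, a kinase of the Tec family, fell from 8.73 and 8.46 to 7.74 and 7.27 (-1.09 ± 0.17, adjusted p = 0.00243). The number that fell was 3 without gamma-delta 17 replicate 2 or ROR- replicate 1 and 2 without ROR- replicate 2, whereas the 3 rises were counted each time. Ptpn22 and Dgka lost their call in each of those fits.

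Genes induced by receptor stimulation were lower, 10 of 27 falling and 0 rising, with a median change of -0.99. Egr3 stood at 4.88 and 5.10 against 7.17 and 7.01 (-2.09 ± 0.24, adjusted p = 0.000226) and the phosphatase Dusp2 at 6.26 and 6.24 against 8.47 and 8.29 (-2.13 ± 0.30, adjusted p = 0.00105). Myc, the growth regulator, stood at 8.30 and 7.80 against a ROR- mean of 9.97 (-1.92 ± 0.24, adjusted p = 0.000537). Both gamma-delta 17 arrays lay under both ROR- arrays in each of them, by 1.90 for Egr3, 2.03 for Dusp2 and 1.64 for Myc. Tnfrsf18, the gene of GITR, fell by 1.92 ± 0.32 and its neighbour Tnfrsf4, the gene of OX40, by 1.85 ± 0.35, the latter call being lost without gamma-delta 17 replicate 2 (adjusted p = 0.0652) or ROR- replicate 1 (0.0802), when 6 members of the list fell in each case.

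Of 19 checkpoint and costimulation genes 9 fell and 1 rose, with a median change of -0.89. Without gamma-delta 17 replicate 2 the median was -0.31, 8 fell and 2 rose. The rise was that of Pdcd1, the inhibitory receptor PD-1, from 5.22 and 5.49 to 7.35 and 7.65 (2.15 ± 0.18, adjusted p = 2.47e-05). Btla, another inhibitory receptor, moved the opposite way, from 6.83 and 6.87 to 3.96 and 3.77 (-2.99 ± 0.19, adjusted p = 4.88e-06). Cd2, an adhesion receptor, fell from 9.66 and 9.59 to 7.89 and 7.21 (-2.08 ± 0.22, adjusted p = 0.00014). Cd27, a costimulatory receptor that in gamma-delta T cells marks the interferon gamma-making branch, stood at 7.14 and 4.85 against 9.32 and 9.11 (-3.23 ± 0.51, adjusted p = 0.00251). Replicate 1 of gamma-delta 17 was 2.29 log2 units above replicate 2 for Cd27, and the fall was -4.37 without it and -2.08 without replicate 2. Cd200r1 fell by 2.19 ± 0.39, with its call lost without ROR- replicate 1 (adjusted p = 0.0622). In the tumour necrosis factor (TNF) superfamily, which shares many of these genes, 2 of 23 rose, Tnf and Lta, and 8 fell; without ROR- replicate 1, 0 rose and 3 fell.

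**Figure D4:**
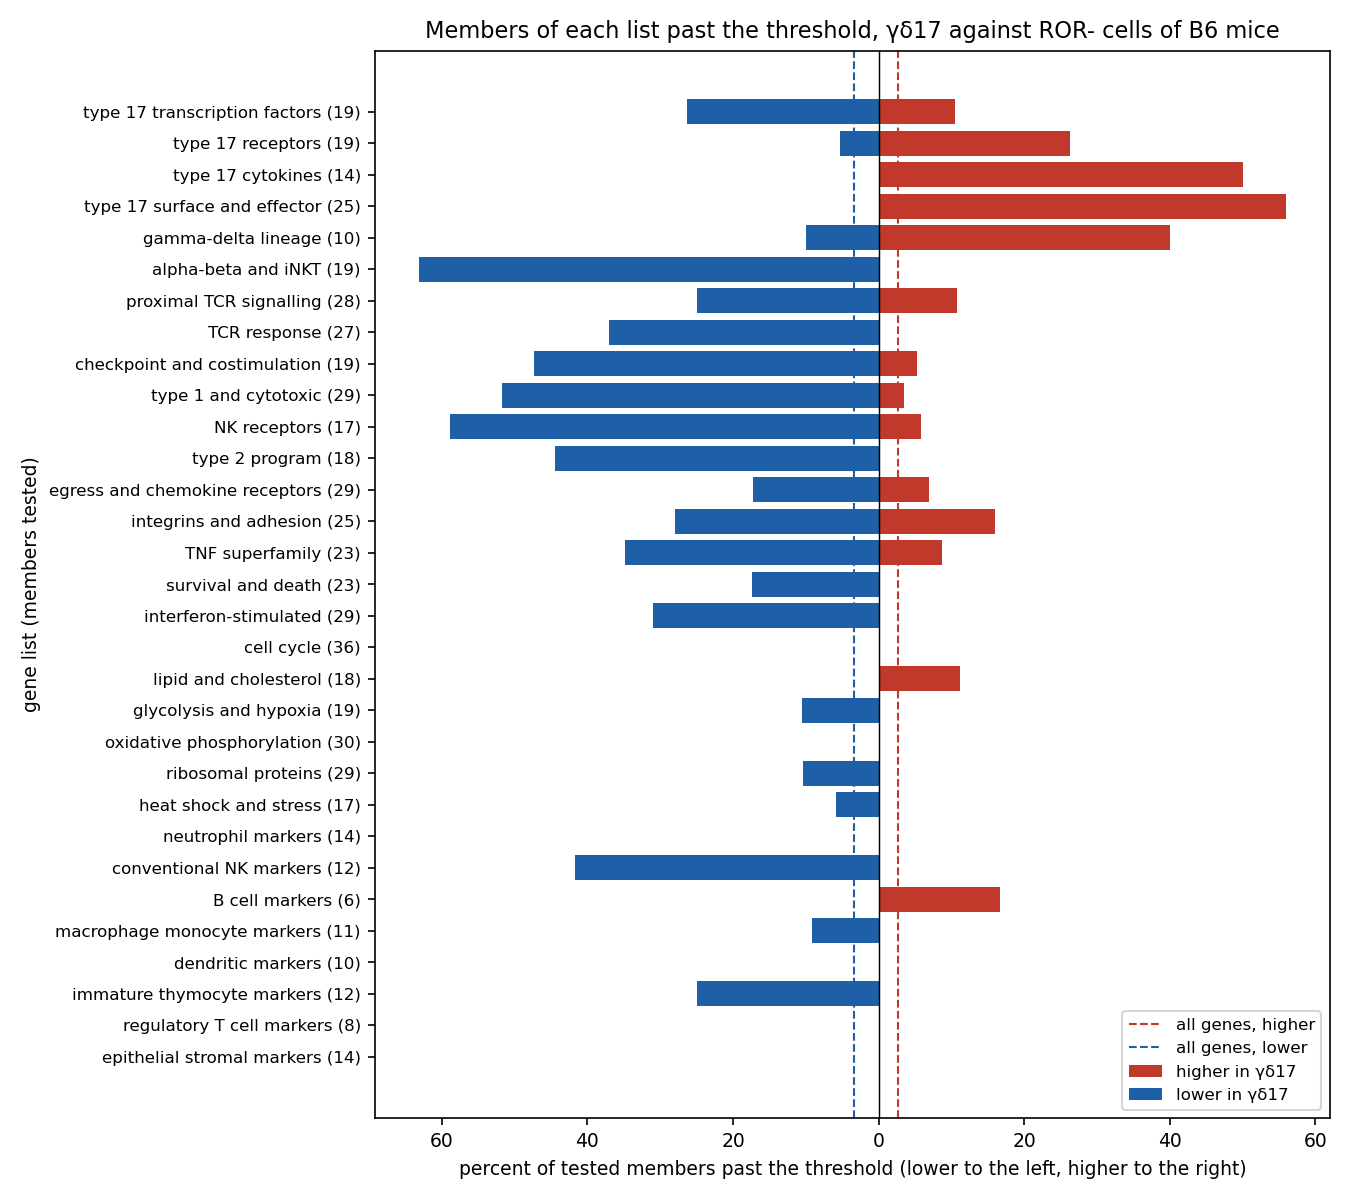
Share of tested members of each gene list (number tested in brackets) that passed lower (blue, to the left) or higher (red, to the right) in gamma-delta 17 against ROR- cells of B6 mice, in percent; dashed lines mark the shares over all genes, 3.41% lower and 2.61% higher. Lists with fewer than 5 members tested are not drawn, and all lists were chosen with earlier results of these data known. The type 17 receptor, cytokine, and surface and effector lists lie mainly to the right. The NK receptor, type 1, type 2 and alpha-beta lists lie mainly to the left.

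Membrane proteins that restrict viruses were the leading falls among interferon-stimulated genes, of which 9 of 29 fell and 0 rose, with a median change of -0.40. Ifitm2 stood at 7.17 and 4.39 against 10.10 and 10.76 (-4.65 ± 0.89, adjusted p = 0.00774), Ifitm3 at 6.31 and 4.70 against 9.07 and 9.88 (-3.97 ± 0.64, adjusted p = 0.00255), and Ifitm1 at 4.36 and 3.61 against 7.66 and 7.76 (-3.72 ± 0.59, adjusted p = 0.00237). All 3 were higher on replicate 1 of gamma-delta 17 than on replicate 2, and all were lower there than on either ROR- array. Ifitm2 lost its call without gamma-delta 17 replicate 2 (-3.26, adjusted p = 0.0696) or ROR- replicate 2 (-4.32, adjusted p = 0.0746). Ifit2, an RNA-binding effector, fell from 5.15 and 5.66 to 3.44 and 3.81 (-1.78 ± 0.23, adjusted p = 0.000552). The number that fell was 4 without gamma-delta 17 replicate 2, 4 without ROR- replicate 1 and 5 without ROR- replicate 2.

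The remaining large falls belong to no receptor or cytokine group. Ly6c2, a surface protein of memory-type T cells and monocytes, stood at 6.66 and 3.06 on the gamma-delta 17 arrays and 10.69 and 10.54 on the ROR- arrays (-5.75 ± 0.81, adjusted p = 0.00105); the arrays of gamma-delta 17 were 3.60 log2 units apart, and the fall was -7.55 without replicate 1 and -3.95 without replicate 2. Ctla2b, a cysteine protease inhibitor gene, stood at 4.29 and 3.29 against 9.01 and 8.79 (-5.11 ± 0.27, adjusted p = 2.86e-06). Samd3 stood at 4.46 and 3.68 against 8.09 and 7.94 (-3.94 ± 0.26, adjusted p = 5.77e-06), and Pglyrp1, a peptidoglycan-binding antibacterial protein gene, at 7.05 and 5.59 against 10.20 and 10.14 (-3.85 ± 0.38, adjusted p = 8.45e-05). Of the 15 largest falls 13 passed whichever of the 6 B6 arrays was left out, Gzma and Ifitm2 being the exceptions.

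Adhesion genes showed exchanges within a family, with 4 of 25 higher and 7 lower. The integrin chain Itgb5 rose from 5.63 and 5.39 to 8.50 and 8.66 (3.07 ± 0.18, adjusted p = 4e-06), while Itgb3, which pairs with the same alpha chain, fell from 9.75 and 9.46 to 8.29 and 7.90 (-1.51 ± 0.17, adjusted p = 0.000205). Itga5, part of the fibronectin receptor, rose from 5.06 and 5.05 to 6.75 and 6.88 (1.76 ± 0.13, adjusted p = 1.24e-05). The gamma-delta 17 arrays lay 0.16, 0.40 and 0.13 log2 units apart for these 3 genes, and the groups did not overlap. The tetraspanin Cd81 fell from 8.79 and 8.55 to 5.50 and 4.50 (-3.67 ± 0.37, adjusted p = 8.76e-05). Cd9, a related gene, fell by 2.56 ± 0.23 on the probe set used, whereas a second, dimmer probe set for it differed by -0.23. Itgae, the CD103 integrin chain of tissue-resident cells, stood at 8.98 and 9.08 against 8.53 and 8.92 (0.31 ± 0.20, adjusted p = 0.482).

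Genes of egress and chemotaxis gave 2 rises and 5 falls among 29, with a median change of -0.28 (-0.44 without ROR- replicate 1). Gpr174, a lysophosphatidylserine receptor, fell from 5.18 and 5.27 to 3.13 and 2.58, under the dim level (-2.37 ± 0.20, adjusted p = 2.95e-05), and Klf7, a zinc finger factor, rose from 5.88 and 5.67 to 6.82 and 6.67 (0.97 ± 0.15, adjusted p = 0.00243). Klf3, another factor of that family, stood at 7.35 and 7.01 against 6.63 and 6.25 (0.74 ± 0.17, adjusted p = 0.0275), a call lost without gamma-delta 17 replicate 1 (adjusted p = 0.202) or ROR- replicate 2 (0.236), and in fits on the 4 compared or the 6 B6 arrays (0.108 and 0.0703). S1pr1, the receptor that carries lymphocytes out of tissue, stood at 7.56 and 6.46 against 8.62 and 7.96 and did not pass (-1.29 ± 0.42, adjusted p = 0.114), though it did without gamma-delta 17 replicate 1 (-1.84, adjusted p = 0.0497). Klf2, which controls S1pr1, stood at 6.63 and 6.13 against 6.91 and 7.13 (-0.64 ± 0.62, adjusted p = 0.672), and Ccr7 at 6.14 and 5.35 against 5.93 and 5.58 (-0.01 ± 0.26, adjusted p = 0.991). The number that fell was 3 without ROR- replicate 1, and 2 without either ROR- replicate 2 or gamma-delta 17 replicate 2.

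The lists of cell cycle and oxidative phosphorylation genes held no change that passed. Of 36 cell cycle genes 0 passed by limma and 0 had an unadjusted p under 0.05, with adjusted p-values between 0.595 and 0.997; the median change of 0.37 was -0.19 without ROR- replicate 1 and 0.90 without replicate 2, and Mki67 stood at 9.82 and 9.96 against 8.70 and 9.68 (0.70 ± 0.80, adjusted p = 0.724). Of 30 oxidative phosphorylation genes 0 passed and 1 had an unadjusted p under 0.05, with changes between -0.41 and 0.41. Of 29 ribosomal protein genes 3 fell (10.3%), by 0.54 to 0.80, and of 19 glycolysis and hypoxia genes 2 (10.5%), Slc2a1 and Slc2a3. Of 23 survival genes 4 fell (17.4%), led by Dapk2 (-1.30), and of 17 heat-shock and stress genes 1 (5.88%), Ier2. Over all genes 3.41% fell, and the heat-shock and stress count lies near that share. With 1 of the 4 arrays left out, 0 of the ribosomal genes passed each time and 0 or 1 of the glycolysis and hypoxia genes. The survival genes that fell were then 3 without gamma-delta 17 replicate 1 or ROR- replicate 1 and 1 without gamma-delta 17 replicate 2 or ROR- replicate 2. Of the heat-shock and stress genes 2 fell without gamma-delta 17 replicate 2 and 0 without any other of the 4 arrays.

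Of 18 lipid genes 2 rose (11.1%, against 2.61% of all genes). Cd36, a fatty acid uptake receptor, stood at 3.80 and 5.91 against 2.59 and 2.74 (2.20 ± 0.47, adjusted p = 0.0155); it was under the dim level in ROR- cells and lost its call without either ROR- array (adjusted p = 0.102 and 0.0769) and in fits on the 4 compared or the 6 B6 arrays (0.109 and 0.08). Acsl4 rose by 0.74 ± 0.17 and lost its call without any of the 4 arrays (0.101 to 0.128). Among markers of other cells, the B cell signalling gene Cd79b rose from 4.77 and 5.13 to 7.48 and 8.24 (2.91 ± 0.29, adjusted p = 8.49e-05), while its partner Cd79a stood at 3.66 and 4.09 against 4.58 and 4.29 and the B cell genes Pax5 and Cd22 differed by -0.03 and 0.01 (these 3 were named after their values were seen). None of the dendritic cell (10), erythroid (3), mast cell (4), regulatory T cell (8) or epithelial and stromal (14) markers passed. Over all genes 6.02% passed, so lists this short would hold few calls or none at that share. Of 11 macrophage and monocyte markers 1 fell, Ly6c2, and 0 rose, with changes between -5.75 and 1.42.

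The other type 17 population of the strain, B6 iNKT17 cells, gives a further reference for these values. In the test of gamma-delta 17 minus iNKT17 within the same model, 28 genes passed (0.168%), 18 higher (0.108%) and 10 lower (0.06%), and the comparison shares the gamma-delta 17 arrays with the one above. Of the 15 largest rises over ROR- cells 3 passed as higher than in iNKT17 cells, Il17a, Cd163l1 and Trgv6, and of the 15 largest falls 1, Ctla2b, passed as lower. Il23r had a mean of 9.76 on the iNKT17 arrays against 10.13 in gamma-delta 17 cells, and the difference of 0.36 ± 0.95 did not pass (adjusted p = 0.931). Il1r1 stood at 9.80 and 9.57, and the difference was 0.22 ± 0.49 (adjusted p = 0.918).

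**Figure D5:**
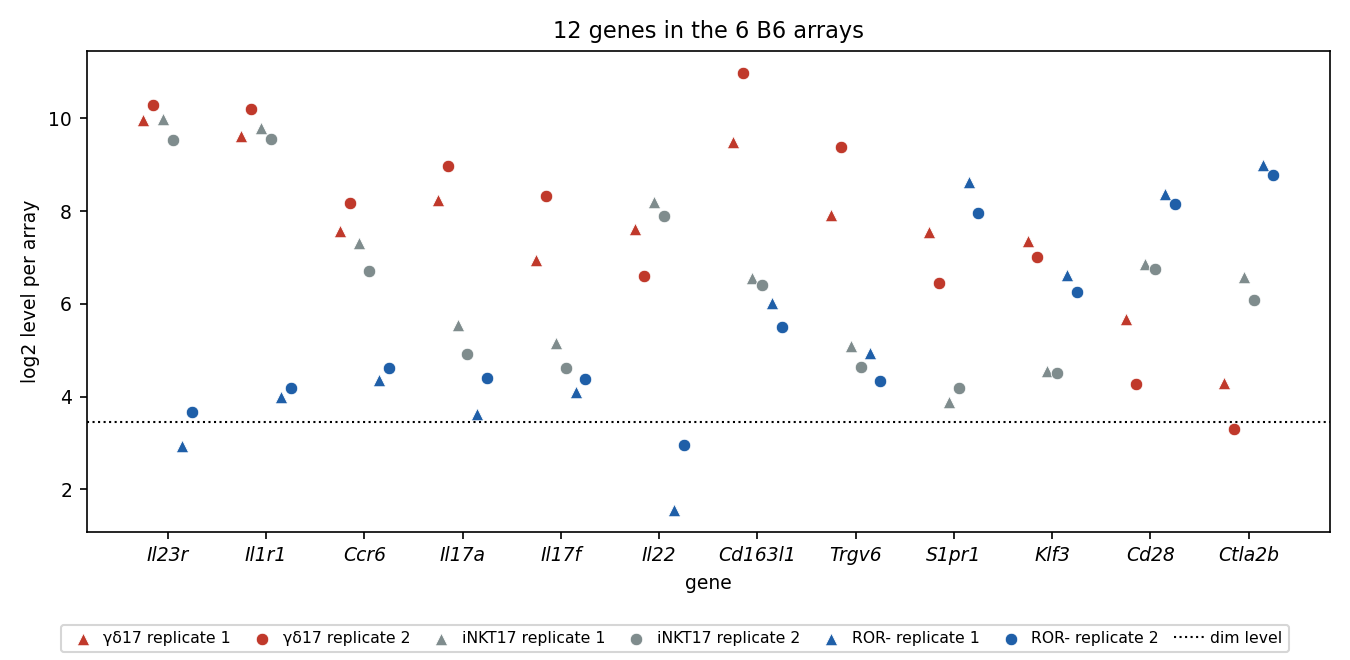
Log2 level of 12 genes on each of the 6 B6 arrays, gamma-delta 17 (red), iNKT17 (grey) and ROR- (blue), with triangles for replicate 1 and circles for replicate 2 and the dim level dotted. The red and grey points lie together for Il23r and Il1r1, while for Il17a, Il17f, Cd163l1 and Trgv6 the grey points lie nearer to the blue than to the red ones.

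Il17a stood at 5.54 and 4.93 on the iNKT17 arrays, below both gamma-delta 17 arrays (3.38 ± 0.47, adjusted p = 0.018), and Il17f at 5.15 and 4.62 (2.75 ± 0.39, adjusted p = 0.018). Il22 took the other order, at 8.19 and 7.90, with no difference that passed (-0.93 ± 1.06, adjusted p = 0.839). The call of Il17a was lost without gamma-delta 17 replicate 2 (adjusted p = 0.0654) or iNKT17 replicate 1 (0.065) or 2 (0.277), and that of Il17f without iNKT17 replicate 1 (0.065) or 2 (0.277). Cd163l1 stood at 6.56 and 6.41 (3.75 ± 0.37, adjusted p = 0.00187) and Trgv6 at 5.08 and 4.64 (3.79 ± 0.46, adjusted p = 0.00705; 0.13 without iNKT17 replicate 2).

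Klf3 and S1pr1 were both higher in gamma-delta 17 than in iNKT17 cells. Klf3 stood at 4.55 and 4.51 on the iNKT17 arrays (2.65 ± 0.17, adjusted p = 9.28e-05) and S1pr1 at 3.89 and 4.18 (2.98 ± 0.42, adjusted p = 0.0192). The call of Klf3 held with each B6 array left out, whereas that of S1pr1 was lost without gamma-delta 17 replicate 1 (0.0646), iNKT17 replicate 1 (0.141) or iNKT17 replicate 2 (0.178). Ctla2b stood at 6.58 and 6.07 in iNKT17 cells, between its levels in the other groups (-2.53 ± 0.27, adjusted p = 0.00332). Cd28 did likewise at 6.86 and 6.76, with a difference of -1.84 ± 0.33 that did not pass (adjusted p = 0.0591) but did without gamma-delta 17 replicate 1 (-2.55, adjusted p = 8.44e-05) or 2 (-1.13, adjusted p = 0.0219). The count of 28 was 63 without gamma-delta 17 replicate 1, 55 without replicate 2, and 11 and 5 without iNKT17 replicate 1 and 2.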

How the data were processed

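The authors deposited log2 expression values for 41345 probe sets on 12 Affymetrix whole-transcript arrays. The oligo package is named in the submitters' processing notes, without settings or version, and the log2 scale was inferred from the values (array medians 4.10 to 4.30). They were used as deposited. Names came from the platform annotation; 23521 probe sets carried 1 symbol, covering 22180 genes, and the brightest probe set by 12-array mean stood for a gene. Genes with at least 2 arrays above the 30th percentile (log2 3.45, the dim level) were tested, 16667 in all.

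A group-means model over the 5 groups was fitted to all 12 arrays with limma 3.58.1 (lmFit, eBayes) in R 4.3.3, giving 7 residual and 4.50 prior degrees of freedom, with Benjamini-Hochberg adjustment and a threshold of 0.05. The script was tested on simulated data. The number of arrays limits the precision.

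The members and gene lists were chosen with earlier results of these data known. The text names the 15 largest rises and falls (at least 2-fold, nearest arrays at least 1 log2 unit apart, clone-named genes left out), up to 5 members of each list per direction, and set anchor genes. Replicate numbers were not taken to pair the samples: the labels name no shared source, and deviations of same-numbered arrays correlated with r = -0.01 between gamma-delta 17 and ROR-, -0.12 between gamma-delta 17 and iNKT17, and 0.47 between ROR- and iNKT17. Alternatives covered normalization, filters, probe choice, weights, arrays left out, a replicate block and a test against a 2-fold change.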

Additional observations from a re-analysis of the deposited data

How the results depend on the processing

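Against ROR- cells no named gene that passed changed direction under any alternative, while Ccr7, Il7r and Cd3e, near 0, and Ngp, Lyz2, Cd8b1 and 3 others that did not pass changed sign under some. Calls of named genes were lost, however: 18 with the 4 compared arrays alone, 16 with the 6 B6 arrays, 8 with the replicate block, 7 each with the crossed block and a trended robust fit, 4 each with median centring and quantile normalization, 3 with no dim filter and 66 against a 2-fold change. Tested against a 2-fold change with limma's treat, 144 genes passed, 74 higher and 70 lower. With each of the 6 B6 arrays left out in turn the count lay between 530 and 908, that of higher genes between 237 and 399 and that of lower genes between 293 and 509. The other alternatives (4 or 6 arrays, median centring, quantile normalization, other dim filters, mean of probe sets, array weights, a robust trended fit) gave 802 to 1131. Median centring shifted the median over all genes to -0.04 and gave 354 higher and 597 lower, quantile normalization 492 and 511.

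Against iNKT17 cells the counts were less stable. Only 2 genes passed, 1 higher and 1 lower, with the 4 arrays of those groups or with the 6 B6 arrays, and 3, 2 higher and 1 lower, against a 2-fold change. Leaving out 1 array gave 5 to 63 in all, 3 to 42 higher and 2 to 32 lower; the cause was not tested. Cd8a turned from 0.38 to -1.27 (adjusted p = 0.0208) without gamma-delta 17 replicate 1 and was 2.03 without replicate 2.

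With the replicate number as a block, 962 genes passed against ROR- cells, 419 higher and 543 lower, and 21 against iNKT17 cells, 5 of them lower. A crossed block, added after seeing that deviations of gamma-delta 17 and iNKT17 arrays correlated with r = -0.12, gave 986 and 24, though those of ROR- and iNKT17 arrays correlated with r = 0.47. Levels under 3.45 have no reliable size.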

Other observations

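Beyond the genes named by rule, the next 45 rises and 45 falls by size held genes that the lists do not cover; the genes given here were chosen after their values were seen. Pde5a, which breaks down cyclic GMP, stood at 7.80 and 8.30 on the gamma-delta 17 arrays and 4.28 and 4.28 on the ROR- arrays (3.77 ± 0.22, adjusted p = 4e-06), and Irak3, a brake on IL-1 and Toll-like receptor signalling, at 8.42 and 9.21 against 5.25 and 5.07 (3.65 ± 0.43, adjusted p = 0.000286). Igf1r, the insulin-like growth factor receptor, stood at 7.34 and 7.52 against 4.53 and 3.92 (3.20 ± 0.37, adjusted p = 0.000247), and the gap junction gene Gja1 at 6.75 and 7.02 against 4.02 and 3.91 (2.92 ± 0.46, adjusted p = 0.00243). Upp1, an enzyme of uridine salvage, rose from 5.45 and 5.24 to 8.39 and 8.97 (3.33 ± 0.35, adjusted p = 0.000136). Their levels on the B6 iNKT17 arrays were 7.89 and 7.69 for Pde5a, 8.82 and 7.91 for Irak3, 7.39 and 7.19 for Igf1r, 8.22 and 8.57 for Gja1 and 9.21 and 9.21 for Upp1, and in none of these 5 did gamma-delta 17 and iNKT17 cells differ past the threshold.

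Among the falls, Cyp11a1, the enzyme that starts steroid synthesis from cholesterol, stood near the dim level in gamma-delta 17 cells at 3.62 and 3.39 against 7.27 and 7.40 (-3.83 ± 0.75, adjusted p = 0.0098). Gpnmb, a glycoprotein of the cell surface, stood at 4.30 and 4.27 against 7.20 and 7.39 (-3.02 ± 0.20, adjusted p = 7.02e-06), and Slamf7, a SLAM family receptor, at 4.91 and 4.03 against 8.04 and 8.34 (-3.72 ± 0.26, adjusted p = 1.01e-05). Gzmc, the granzyme C gene, stood at 7.01 and 6.28 against 9.76 and 9.61 (-3.04 ± 0.25, adjusted p = 2.27e-05), and Hrh4, a histamine receptor, fell from 5.91 and 6.04 to 3.44 and 3.39, under the dim level (-2.56 ± 0.34, adjusted p = 0.000729). Gamma-delta 17 replicate 1 was the higher of its pair for each of these 5, by 0.03 to 0.88 log2 units. All differences here are from the limma fit over all genes.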
